A study of Solanum tuberosum with 72 samples.

Results

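The spots described here had a strongly negative log2 ratio in potato (Solanum tuberosum) roots after 3 h of cold and a mean near that of the controls at 27 h. They were chosen by their values: a mean difference from control of -1 or lower in root cold 3 h, within 0.5 of 0 in root cold 27 h, and above -0.8 in root salt 3 h. The rule found 76 member spots among 13585 spots that had at least 2 values in all 24 groups, out of 32448 spots in the deposited table. Because most spots were printed as duplicates, the 76 spots stand for 49 distinct pairs or singles. The rule did not use the values at 9 h in root or any value in leaf, and those are tested below. The other root values under heat and salt belong to the rule or share its control arrays, and are described with no test.

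Chilling stiffens plant membranes and slows water uptake by roots, and it sets off waves of transcription of which the earliest are often transient. In Arabidopsis, transcripts of the CBF/DREB factors, which switch on cold-response genes, build up within hours of chilling and then decline while their targets stay high.

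Seedlings of the variety Gilroy, raised from true potato seed in hydroponic culture for 5 weeks, were given chilled medium at 4 °C as cold, heated medium at 35 °C as heat, or medium with NaCl as salt, a dose which the labels put at 100 mM in one field and 150 mM in another. Control plants had their medium changed without stress. The labels give 25 °C for the control and the salt samples. Roots and shoots were sampled after 3, 9 and 27 h, the shoots being titled leaf, with 6 plants pooled per sample and the whole experiment done independently 3 times, so each of the 24 groups had 3 arrays. Each of the 72 two-colour arrays compared the sample's RNA, in Cy3, with an unstressed reference pool matched for tissue and time, in Cy5, with no dye swap. Which channel was the numerator is unknown, so a difference is called positive or negative as deposited, and neither word says whether the RNA became more or less abundant. A value called a difference is the mean log2 ratio of the stress arrays minus that of the control arrays matched for tissue and time. Bulk tissue cannot tell fewer cells of a type from less RNA per cell.

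Of the 13585 spots, 333 met the condition for root cold 3 h. Of these, 249 missed the condition for 27 h, 224 of them on the negative side and 25 on the positive side, and 8 more missed the condition for salt. In 27 pairs both spots were members, which accounts for 54 of the 76. The other 22 members had a partner that missed at least 1 condition, although the partners' own differences in root cold 3 h were between -2.54 and -0.81. In the 27 pairs with both spots as members, partners gave similar values. Over all 18 comparisons the SD within a pair was 0.092, and the largest gap between partners was 0.758. The partners of the other 22 members were left out of both values.

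The thresholds cut through a continuous range of values. The members nearest to the limit of -1 in root cold 3 h were spot 150832 at -1.001 and spot 145609 at -1.008, and the spots just outside were 141542 at -0.996 and 134871 at -0.994. At 27 h the members nearest the negative limit were 157396 at -0.495 and 142632 at -0.492, against 142793 at -0.501 and 143203 at -0.518 outside. On the positive side the nearest were 134909 at 0.420 and 146064 at 0.399 inside and 153477 at 0.620 and 135930 at 0.639 outside. In root salt 3 h the nearest were 136957 at -0.794 and 149387 at -0.788 inside and 139892 at -0.813 and 158845 at -0.886 outside.

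Gene names reach few of the members. GEO's platform annotation pairs 1810 spots with genes, and 7 of the 76 members are among them: 4 spots of LOC102582822, 2 spots of LOC102577522 and 1 spot of HRBP1. The other 69 members have no gene name in the tables used here and are given by spot number.

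Root cold 3 h is the contrast that chose the members, so its values are a description with no test. The median difference was -1.26, with a range from -3.46 to -1.001. By experiment the medians were -0.946, -1.37 and -1.46 for replicates 1, 2 and 3, so replicate 1 was the least negative.

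**Figure D1:**
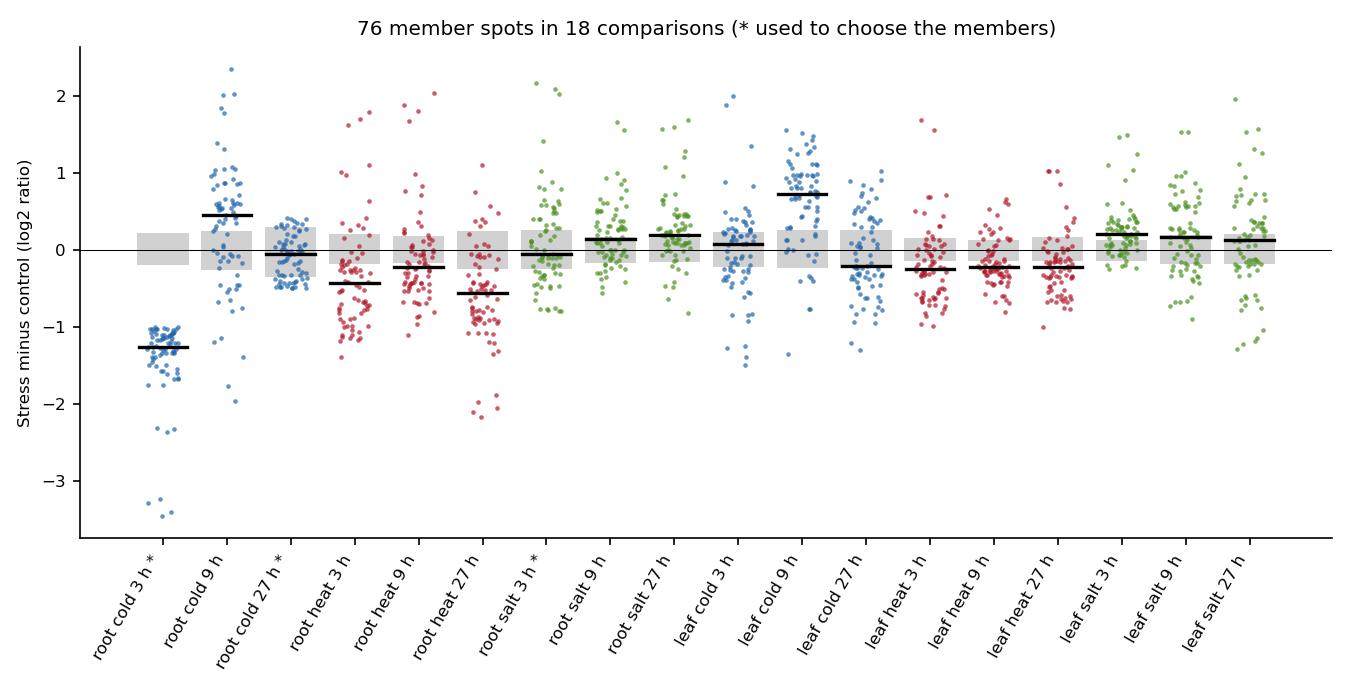
Stress minus control in log2 ratio (y axis) for each of the 76 member spots (points) in the 18 comparisons (x axis). Black bars are the members' medians and grey boxes run from the lower to the upper quartile of all 13585 spots. The members' median was -1.26 in root cold 3 h, 0.45 in root cold 9 h and 0.73 in leaf cold 9 h.

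The most negative member was spot 162580. On its root arrays at 3 h the control log2 ratios were 0.40, 0.33 and 0.77 and the cold ratios were -2.56, -2.84 and -3.47 in replicates 1, 2 and 3. The difference of -3.46 was met by -3.30 in its partner 163424. Spot 142632 had control values of 0.50, 0.44 and 0.59 and cold values of -2.18, -2.84 and -3.18, a difference of -3.25, with -3.41 in its partner 144491. In both named spots every cold array lay below every control array by more than the spread of either group.

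Spot 150469 had control values of 0.07, 0.10 and 0.04 and cold values of -1.84, -2.32 and -2.74, with a difference of -2.37 and -2.33 in its partner. Spot 134199 had control values of 0.00, 0.03 and 0.19 and cold values of -1.84, -2.32 and -2.56, with a difference of -2.31. Its partner 135043, at -2.54, was no member because its difference at 27 h was -0.63. Below these 4, the members close up: the next 6 of the 10 most negative were 131515 (-1.76), 147722 (-1.68), 150513 (-1.67), 161253 (-1.66), 159507 (-1.61) and 142368 (-1.57).

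At 9 h in root, which the rule did not use, the members no longer lay together. The median difference was 0.45, with quartiles at -0.14 and 0.81 and a range from -1.96 to 2.35, against a median of -0.02 over all 13585 spots. In this comparison 51 members were positive and 25 negative. By limma over 14866 root spots, with p-values adjusted by Benjamini-Hochberg and called below 0.05, 27 members were called positive, 35.5% of them, where 13.7% of all spots tested were. Another 9 were called negative, or 11.8%, against 11.9% of all spots. The 27 positive calls stand for 16 distinct pairs or singles and the 9 negative calls for 7.

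These counts depend on how the arrays are scaled. After quantile scaling, which gives control arrays the same spread of values as stress arrays, 10 members were called at root cold 9 h, 7 negative and 3 positive, with a median of 0.04. Under the same scaling 2358 of all 14866 spots were called, against 3806 on the deposited values. Without replicate 3 of the root control at 9 h, 21 members were called, 6 negative and 15 positive. The members' median log2 ratio on the control arrays themselves was above 0 on 17 of the 18, and on the root control arrays at 9 h it was 0.151, 0.401 and 0.151. The part of these control values in the result was not tested.

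By their difference in root cold 9 h, 35 spots (20 distinct pairs or singles) were at 0.5 or higher, 29 (23) were within 0.5 of 0, 7 (6) lay between -1 and -0.5, and 5 (3) were at -1 or lower. Of the 35 spots at 0.5 or higher, 27 were called positive, and of the 12 at -0.5 or lower 9 were called negative. The 29 spots within 0.5 of 0 gave no call. The classes were cut on the same differences that were tested, which fixes the direction of the calls, so these counts are a description only.

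**Figure D2:**
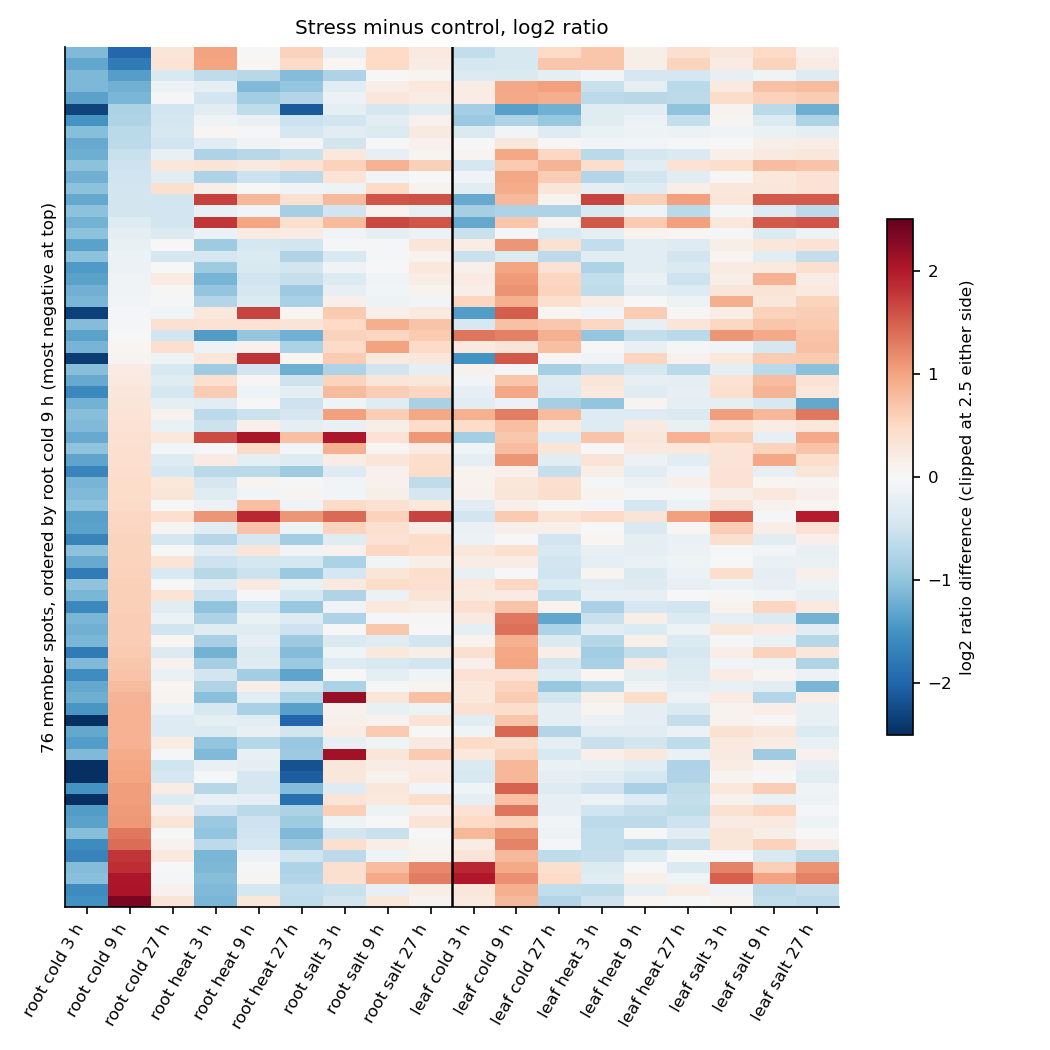
Each row is 1 of the 76 member spots and each column 1 of the 18 comparisons, coloured by stress minus control in log2 ratio, and the vertical line separates root from leaf. Rows run from the most negative spot in root cold 9 h (-1.96) at the top to the most positive (2.35) at the bottom, and the column for leaf cold 9 h is positive in 64 rows.

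The highest value at 9 h belonged to spot 144572. Its root control values at 9 h were 0.04, 0.04 and 0.28 and its cold values were 2.11, 2.56 and 2.75, a difference of 2.35 ± 0.31 (standard error, here and below; adjusted p = 1.19e-06, limma). At 3 h the same spot had cold values of -2.25, -1.22 and -0.76 against controls of -0.27, 0.28 and 0.29. So the cold arrays were the lowest at 3 h and the highest at 9 h, without overlap with the controls at either time.

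Spot 152811 had 9 h controls of 0.08, 0.16 and 0.19 and cold values of 1.36, 1.88 and 3.24, a difference of 2.02 ± 0.30 (adjusted p = 7.74e-06). Its partner 153655 gave 1.84. Replicate 3 was well above the other cold arrays, but the lowest of them still exceeded every control. Spot 150513 had 9 h controls of 0.04, 0.11 and 0.99 and cold values of 1.62, 2.14 and 2.72, a difference of 1.78 ± 0.32 (adjusted p = 1.21e-04). Spot 142368 followed at 1.39 ± 0.19 (adjusted p = 1.33e-06) and spot 142375 at 1.31 ± 0.30 (adjusted p = 0.00124). The most negative spot at 3 h, 162580, was also among the positive calls, with cold values of 1.46, 1.19 and 1.73 over controls of 0.43, 0.45 and 0.34, a difference of 1.05 ± 0.20 (adjusted p = 2.28e-04).

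The lowest value at 9 h belonged to the pair of spots 147746 and 149605. Spot 147746 had root controls at 9 h of 0.34, 0.44 and 0.12 and cold values of -0.97, -1.55 and -1.89, a difference of -1.78 ± 0.22 (adjusted p = 4.58e-07), and its partner gave -1.96. At 3 h this pair had been near the limit of the rule, at -1.31 and -1.10, so its 9 h difference was the more negative of the times sampled, and at 27 h it was 0.34 and 0.29.

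Spot 148521 had no value on the root cold 9 h array of replicate 1, and the other cold values were -1.06 and -1.12 against controls of 0.32, 0.64 and -0.07, a difference of -1.39 ± 0.26 (adjusted p = 3.51e-04). Spot 152882 also lacked that array, with cold values of -0.79 and -0.69 against controls of 0.38, 1.05 and -0.04, a difference of -1.199 ± 0.26 (adjusted p = 0.00149). Spot 134199 was called at -0.80 ± 0.27 (adjusted p = 0.026). The fifth of the lowest pairs, 161380 and 163239, had differences of -0.46 and -0.76. In root cold 9 h spot 161380 was not called, while its partner 163239 was among the 9 negative calls.

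At 27 h in root the rule held the members within 0.5 of 0, and their median was -0.05, with 46 negative and 30 positive. The median by experiment was 0.07, -0.28 and -0.12 in replicates 1, 2 and 3.

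The spots that met the condition at 3 h and stayed at -0.5 or lower at 27 h give a comparison. The salt condition was not applied to them, so the sets differ in that as well. Of these 224 spots, 95 were called negative and 6 positive in root cold 9 h, with a median of -0.61. Of the 76 members, 9 were called negative and 27 positive there, and of all spots tested 11.9% and 13.7%. In leaf cold 9 h, 55 of the 224 were called negative and 34 positive, against 3 and 42 of the 76 members. Of all leaf spots, 10.7% and 11.8% were. The difference between the sets was not tested.

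Leaf cold shares no array and no reference pool with the contrasts that chose the members. At 3 h the members' median in leaf was 0.08, against 0.00 for all spots, with 36 negative and 40 positive. Of the 76, 9 were called negative (11.8%, against 6.85% of 15601 leaf spots) and 5 positive (6.58%, against 9.17%). Without replicate 3 of the leaf control at 3 h the calls came to 7, 3 negative and 4 positive. With the compared groups fitted alone 5 were negative and 7 positive, so the larger number of negative calls depends on the fit.

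A few spots were negative at 3 h in leaf as well as in root. Spot 150469 had leaf control values at 3 h of -0.10, -0.12 and 0.04 and cold values of -2.00, -1.74 and -0.92, a difference of -1.49 ± 0.22 (adjusted p = 1.81e-05). Spot 137315 was at -1.25 ± 0.42 (adjusted p = 0.0385), spot 143519 at -0.84 ± 0.27 (adjusted p = 0.0275), and spot 161380 at -0.83 ± 0.22 (adjusted p = 0.00907). Others were on the opposite side of 0 from root at the same time. Spot 152811 had leaf controls at 3 h of 0.10, -0.10 and 0.14 and cold values of 2.51, 1.38 and 2.25, a difference of 2.004 ± 0.34 (adjusted p = 1.12e-04), while its root difference at 3 h was -1.04. Spot 157766 was at 1.35 ± 0.25 (adjusted p = 3.22e-04), spot 155764 at 0.88 ± 0.20 (adjusted p = 0.00247), and spot 142375 at 0.83 ± 0.25 (adjusted p = 0.018).

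At 9 h the members were mostly positive in leaf. The median was 0.73, against 0.01 for all spots, and 64 of the 76 were positive. By experiment the members' median was 0.64, 0.65 and 0.74 in replicates 1, 2 and 3. Of the 76, 42 were called positive (55.3%, against 11.8% of all leaf spots) and 3 negative (3.95%, against 10.7%). The 42 stand for 27 distinct pairs or singles. After quantile scaling 9 were called, 1 negative and 8 positive, with a median of 0.38 and 1342 calls among all 15601 spots in place of 3515.

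Spot 150469 had the largest called difference in leaf cold 9 h, with controls of 0.25, 0.07 and 0.21 and 3 cold values of 1.74, for 1.56 ± 0.22 (adjusted p = 4.07e-06), and 1.52 in its partner. At 3 h in leaf its difference had been -1.49. In root this spot showed no such positive phase at 9 h, where its difference was 0.06. Spots 155764, 157766 and 142368 were at 1.28 ± 0.20, 1.26 ± 0.25 and 1.24 ± 0.20 in leaf cold 9 h (adjusted p = 2.15e-05, 3.64e-04 and 3.48e-05). Spot 134199 went the other way, with cold values of -1.60, -1.94 and -0.89 and a difference of -1.35 ± 0.30 (adjusted p = 0.00152).

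At 27 h in leaf the median was -0.21, against 0.01 for all spots. In that comparison 8 members were called negative (10.5%, against 10.7%) and 8 positive (10.5%, against 10.8%). This balance rests on single arrays: without replicate 3 of leaf cold 27 h, 17 were negative and 6 positive, and without its replicate 2, 4 and 9. By experiment the members' median was -0.26, -0.27 and 0.16 in replicates 1, 2 and 3. After quantile scaling 6 were called negative and 1 positive. Spot 148543 had the largest called difference, with leaf controls of -0.23, 0.20 and -0.01 and cold values of -2.00, -1.22 and -0.71, for -1.29 ± 0.28 (adjusted p = 0.0017). The same spot had been positive at 9 h in leaf, at 1.32 ± 0.28 (adjusted p = 0.00115). Its partner 149387 was lower there, at 0.56, and was at -0.95 at 27 h.

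The change between 3 and 27 h in leaf was tested directly. In the difference of the 27 h and 3 h differences, 6 members were called positive (7.89%, against 0.699%) and 0 negative (0.814% of all spots), where 25 members had an unadjusted p below 0.05. Spot 150469 had the largest, at 1.53 ± 0.31 (adjusted p = 0.00916). After quantile scaling 0 members and 2 of all 15601 leaf spots were called, so at that scaling no difference between these times was called in a member. Leaving out replicate 1 of leaf cold 3 h gave 3 calls, replicate 2 of the leaf control at 27 h gave 1, and replicate 1 or 3 of the leaf control at 3 h gave 2 each. The direction was not stable either: 3 were negative and 2 positive with the compared groups fitted alone or without replicate 3 of leaf cold 27 h, and 2 and 4 without replicate 2 of leaf cold 3 h.

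Calls at 9 h of cold were compared between the tissues, which share neither arrays nor a reference pool. Of the 27 members called positive in root, 19 were also called positive in leaf, which is 70.4% of the root calls and 45.2% of the 42 leaf calls, and stands for 12 distinct pairs or singles. Over all 13585 spots tested in both tissues, 784 were called positive in both, which is 42.0% of the root calls and 46.5% of the leaf calls. The difference between members and all spots was not tested. Of the 9 called negative in root, 2 (22.2%) were called negative in leaf and 2 (22.2%) were called positive, the latter being the pair 152882 and 153726. Over all 13585 spots, 39.6% of the negative root calls were called negative in leaf and 2.06% positive. These counts of members are small, and the difference was not tested.

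**Figure D3:**
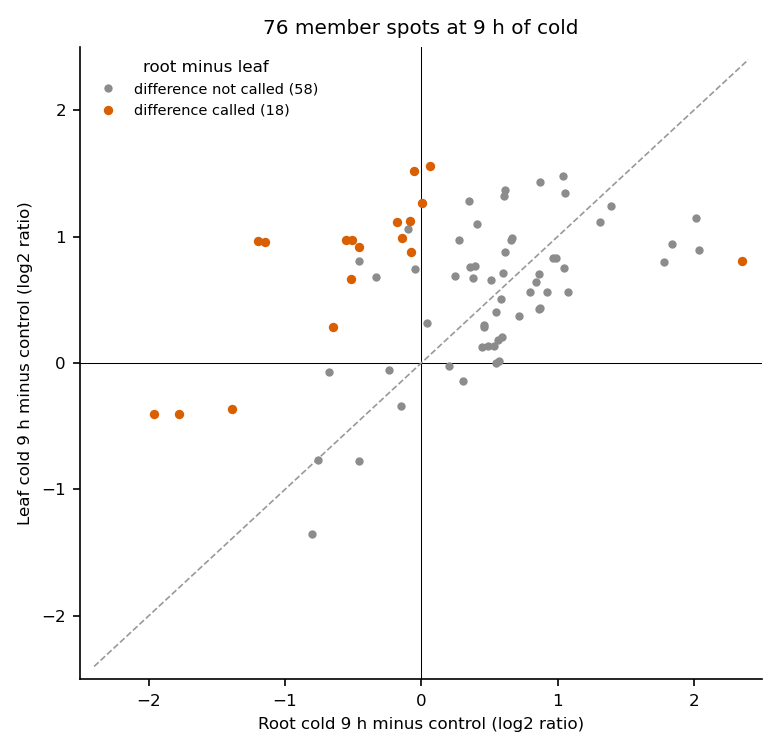
Cold minus control at 9 h in root (x axis) and leaf (y axis), in log2 ratio, for the 76 member spots. The dashed line marks equal values, and orange marks the 18 spots whose root and leaf differences were called different. Of these, 17 lie above the line, where the root value is the lower.

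The difference between the tissues was itself tested, in a fit to all 72 arrays over 13585 spots. The root difference was called lower than the leaf difference in 17 members (22.4%, against 4.09% of all spots) and higher in 1 (1.32%, against 4.95%). The largest was spot 152882. In leaf its 9 h controls were -0.23, -0.06 and 0.08 and its cold values 1.22, 0.21 and 1.25, a difference of 0.96 ± 0.24 (adjusted p = 0.00452), where root had -1.199. Root minus leaf came to -2.16 ± 0.37 (adjusted p = 6.22e-05), with -2.10 in its partner. The member with the higher root value was spot 144572, at 1.54 ± 0.42 (adjusted p = 0.0133). After quantile scaling 1 member was called, with the lower value in root.

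**Figure D4:**
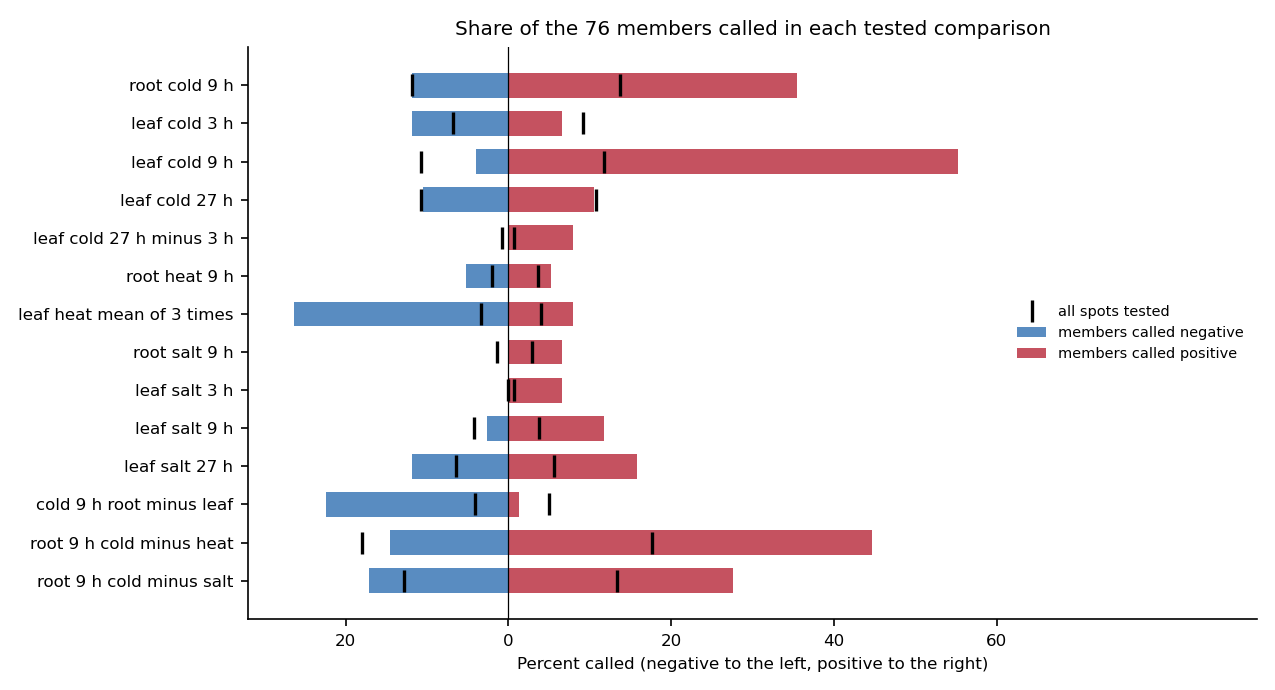
Share of the 76 members called at an adjusted p below 0.05 in each tested comparison (bars, negative to the left and positive to the right, in percent), with the share of all spots tested as black ticks. Positive calls are above the tick in leaf cold 9 h (55.3% against 11.8%), root 9 h cold minus heat (44.7% against 17.6%) and root cold 9 h (35.5% against 13.7%), and negative calls in leaf heat (26.3% against 3.35%).

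Under heat, 53 of the 76 members were negative in root at 9 h, the root time that the rule left independent, but few were called. In root the medians were -0.44, -0.22 and -0.57 at 3, 9 and 27 h, against 0.02, 0.00 and 0.02 for all spots. The 3 h and 27 h values share their control arrays with the contrasts of the rule, and are given with no test. By experiment the 9 h median was -0.07, -0.32 and -0.17, and in replicate 1 the signs were nearly even, with 35 negative and 34 positive. At 9 h, 4 members were called negative (5.26%, against 2.07%) and 4 positive (5.26%, against 3.67%). After quantile scaling 28 were called, 19 negative and 9 positive. The count is small on the deposited values and moved with single arrays: it was 4 without replicate 1 or replicate 2 of the root control at 9 h, and 3 without replicate 1 of root heat 9 h. The split moved too, to 1 negative and 7 positive without replicate 3 of root heat 9 h, 1 and 5 without its replicate 2, and 0 and 4 without replicate 2 of the root control at 9 h.

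Spot 143519 had the largest called difference in root heat 9 h. Its heat values were 3.67, 0.88 and 1.01 against controls of -0.45, -0.06 and -0.04, a difference of 2.04 ± 0.52 (adjusted p = 0.0175), and 1.18 in its partner. Replicate 1 was far above the other heat arrays. Spot 134909 had heat values of 2.87, 1.37 and 0.94 there, and 1.88 ± 0.45 (adjusted p = 0.012). Spot 150469 had 2.67, 1.52 and 1.63, and 1.81 ± 0.24 (adjusted p = 7.02e-05), which sets root heat at 9 h beside leaf cold at 9 h as the conditions where this spot was most positive. The pair 162580 and 163424 differed by -0.23 and -0.26 under 9 h of heat in root, and by -1.89 and -1.97 under 27 h.

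In leaf the heat medians were -0.25, -0.22 and -0.22 at 3, 9 and 27 h, against 0.01, -0.01 and 0.01 for all spots, with 54, 57 and 58 of the 76 negative. The mean of the 3 times was tested. Of the 76 members, 20 were called negative (26.3%, against 3.35%) and 6 positive (7.89%, against 4.06%). The negative calls were small, between -0.75 and -0.32, and stand for 12 distinct pairs or singles. After quantile scaling the counts were 26 and 6. Leaving out all arrays of replicate 1, 2 or 3 left 8, 9 or 10 calls.

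Spot 137315 had the largest called value, at 1.11 ± 0.24 over the 3 times (adjusted p = 0.00427). Its leaf heat values lay between 1.47 and 2.53 at 3 h and between 0.20 and 1.44 at 9 h, and the 27 h values were 2.01, 1.63 and 0.54. Of the 27 members called positive in root cold 9 h, 11 were called negative in leaf heat, which is 40.7% of the former and 55% of the 20 in the latter. Over all 13585 spots these shares were 6.11% and 25.5%, from 114 spots, and the difference was not tested. These comparisons share no array.

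Under salt, 5 members were called in root at 9 h, and 5, 11 and 21 in leaf at 3, 9 and 27 h. In root the medians were -0.06, 0.15 and 0.20 at 3, 9 and 27 h, of which 3 h belongs to the rule and 27 h shares its control arrays. At 9 h, 5 members were called positive (6.58%, against 2.96%) and 0 negative (1.37% of all spots), with 13 below an unadjusted p of 0.05. After quantile scaling 8 were called positive and 2 negative. The count of 5 was 2 without replicate 1 of the root control at 9 h, 1 without its replicate 3, and 3, 2 and 2 without replicate 1, 2 or 3 of root salt 9 h. Spot 137315 had salt values of 1.36, 1.68 and 1.32 against controls of -0.06, 0.40 and -0.69, a difference of 1.57 ± 0.34 (adjusted p = 0.00636), and 1.67 in its partner.

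In leaf under salt the medians were 0.21, 0.17 and 0.13 at 3, 9 and 27 h, against -0.01, 0.01 and 0.02 for all spots. At 27 h, 5 members were at -1 or lower and 6 at 1 or higher. At 3 h, 5 members were called positive (6.58%, against 0.705%) and 0 negative (0.0513% of all spots), with 11 below an unadjusted p of 0.05. Spot 152811 had the largest, at 1.501 ± 0.34 (adjusted p = 0.0187), from salt values of 1.77, 1.14 and 1.72. Leaving out any 1 of the 6 arrays of this comparison left 1 to 3 calls.

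At 9 h in leaf salt, 9 members were called positive (11.8%, against 3.81%) and 2 negative (2.63%, against 4.19%), and after quantile scaling 1 was called, positive. Leaving out replicate 1, 2 or 3 of the leaf control at 9 h left 7, 6 or 4 calls, and leaving out replicate 1 or 2 of leaf salt 9 h left 7 or 1. Without all arrays of replicate 1, 4 were negative and 2 positive. Spot 137315 was again the largest by the rule for naming, at 1.53 ± 0.42 (adjusted p = 0.0218), with 1.54 in its partner.

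At 27 h in leaf salt, 12 members were called positive (15.8%, against 5.59%) and 9 negative (11.8%, against 6.46%). After quantile scaling 3 were called negative and 1 positive. Leaving out replicate 1 or 2 of leaf salt 27 h left 9 or 10 calls, and without replicate 1 of the leaf control at 27 h 8 were negative and 6 positive. Spot 134909 had salt values of 2.72, 2.69 and 1.64 against controls of -0.07, 0.58 and 0.65, a difference of 1.96 ± 0.33 (adjusted p = 1.25e-04).

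The stresses were compared directly at 9 h in root. Cold minus heat was called positive in 34 members (44.7%, against 17.6%) and negative in 11 (14.5%, against 18.0%). Spot 150513 and its partner had the largest, with 1.93 ± 0.32 in the former (adjusted p = 3.14e-05) and 2.47 in the latter. Cold minus salt was called positive in 21 (27.6%, against 13.4%) and negative in 13 (17.1%, against 12.8%), and after quantile scaling in 6 and 12. Here the pair 147746 and 149605 had the largest difference, at -2.26 ± 0.22 in the former (adjusted p = 6.78e-09) and -2.46 in the latter.

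The classes set at root cold 9 h differed in their other values, which are described with no test of the classes. Of the 35 spots at 0.5 or higher, 34 were positive in leaf cold 9 h with a median of 0.75, 21 of them called, and at 27 h in leaf their median was -0.31. The 29 spots within 0.5 of 0 had a median of 0.76 in leaf cold 9 h, 16 of them called positive, and 0.10 at 27 h. The 5 spots at -1 or lower, which stand for 3 distinct pairs or singles, had a median of -0.37 in leaf cold 9 h and 0.70 at 27 h. They were split in leaf cold 9 h, from -0.41 to 0.96, with 0 called negative and 2 positive. At 27 h in leaf 0 were called negative and 3 positive. Of all leaf spots tested, 10.7% were called negative and 11.8% positive in leaf cold 9 h. In leaf cold 27 h these shares were 10.7% and 10.8%.

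The members with a gene name were LOC102582822, LOC102577522 and HRBP1. LOC102582822, whose synonym in the annotation is cyp, was represented by the pairs 153570 with 155429 and 155790 with 157649. In spot 153570 the root 3 h controls were 0.06, 0.16 and 0.18 and the cold values -0.81, -1.43 and -1.60, a difference of -1.41. The 4 member spots of the gene lay between -1.41 and -1.21. In root cold 9 h they lay between -0.55 and -0.14. In leaf cold 9 h spot 153570 had cold values of 1.14, 1.01 and 1.05 against controls of 0.24, 0.25 and -0.27, a difference of 0.99 ± 0.18 (adjusted p = 2.10e-04), and spot 155790 was at 0.97 ± 0.24 (adjusted p = 0.00346). Root minus leaf was -1.13 ± 0.31 in spot 153570 (adjusted p = 0.0123) and -1.48 ± 0.39 in spot 155790 (adjusted p = 0.00942). Over the 3 times of leaf heat these spots were at -0.47 ± 0.11 (adjusted p = 0.00549) and -0.49 ± 0.14 (adjusted p = 0.0264). Both pairs, made from separate sequence tags, lay on the same side of 0 in each of these comparisons. The gene's spots 131308, 132152, 132861 and 133705 had no difference in root cold 3 h and could not be members. In that order they were at -0.18, -0.12, -0.27 and -0.23 in root cold 9 h. In leaf cold 9 h they were at 0.64, 0.67, 0.53 and 0.66.

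LOC102577522 was represented by the pair 153068 and 153912, at -1.08 and -1.02 in root cold 3 h. Spot 153068 was positive in leaf cold 9 h (0.74 ± 0.19, adjusted p = 0.00455), root salt 9 h (0.91 ± 0.25, adjusted p = 0.0305) and leaf salt 27 h (0.65 ± 0.19, adjusted p = 0.0194). Another pair of spots given to the same gene, 142726 and 143570, was at 0.48 and 0.38 in root cold 3 h, on the opposite side of 0, so the probes of this gene disagree.

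HRBP1, annotated by a symbol used for harpin binding protein 1, which in Arabidopsis belongs to the plastid fibrillin family, had root 3 h controls of -0.09, 0.04 and 0.15 and cold values of -0.92, -1.22 and -0.94 in spot 158159, a difference of -1.06. At 9 h its cold values were -0.20, -0.67 and -0.81, a difference of -0.68 ± 0.25 (adjusted p = 0.0421). Its partner 156300 had -0.79 at 27 h and was no member, while spot 158159 had -0.41, with cold values of -1.15, -0.69 and 0.51 that overlapped the controls.

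Some members had nearly the same profile over the arrays although they were not printed as duplicates, an observation made after their values were seen. Among the 49 pairs or singles, each taken by 1 spot, the correlation between members across up to 72 arrays had a median of 0.37 over 1176 comparisons and a range from -0.44 to 0.98, and 4 were above 0.9. The highest was 0.98 between spots 142632 and 162580, the most negative pairs at 3 h. Next were 144572 with 150513 at 0.97 over 69 arrays, 147722 with 161253 at 0.96 over 70, and the LOC102582822 spots 153570 and 155790 at 0.92 over 72. The points share experiments and reference pools, and members were chosen for 1 shared feature.

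Gene lists by annotation held no member, and they show what else moved in the root arrays. In the leaf-marker list, made of photosynthesis genes, 6 of 18 spots tested in root were called negative and 0 positive at root cold 9 h. Of all spots tested, 11.9% and 13.7% were. The 8 spots of cab1, a chlorophyll a/b binding protein of the light-harvesting antenna, lay between -3.96 and -2.86 at 3 h, between -3.45 and -2.43 at 9 h and, for the 6 with enough values, between -3.79 and -2.59 at 27 h in root cold. Only 2 of these 8 had enough values for the test, and both were called. The other genes of the list differed: the spots of psbP and PSBO, subunits of the oxygen-evolving complex, had medians of -1.24 and -0.96 in root cold 9 h. The 12 spots of PSBR, another photosystem II protein, had a median of -0.31 and reached 0.50 there, and at 27 h they ran from -1.03 to 2.31. The 6 negative calls of the list were 4 spots of psbP and 2 of cab1, from 2 genes. In PSBR 0 of 10 tested spots were called, and in PSBO 0 of 2. The part of these genes in the members' values was not tested. The heat shock list (0 of 7 spots called), the auxin list (0 of 4) and the ethylene list (0 of 2) had no call in root cold 9 h by limma, with 0, 0 and 1 below an unadjusted p of 0.05, the cell wall list had 2 of 2 called positive and the WRKY list 6 of 8, against 13.7% of all spots. These are few genes. The heat shock spots are all dnaJ, the ethylene spots are ERS, and the auxin spots are IAA2 and IAA3. Both cell wall spots are xth1, and the WRKY calls are 4 spots of STWRKY8 and 2 of LOC102605073. Neither spot of the dehydrin and cold-regulated list had enough values in root, and the list for peroxidase, aquaporin and nitrate or phosphate transport matched 0 spots.

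Arrays had 15580 to 20545 measured spots, and precision is limited by the number of arrays. Of 2556 pairs of arrays, 1 had a correlation below -0.3, at -0.33, between leaf cold 27 h replicate 3 and leaf heat 9 h replicate 2. No library was left out.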

How the data were processed

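The deposited log2 ratios, as the authors gave them, were used unchanged, and per the submitters' processing notes limma was used, with its role not stated. The values lie on the log2 of ratios with 2 decimals, so that from the lowest member value of -3.47 to the next is a step of 0.15. Differences were tested with limma 3.58.1 in R 4.3.3 on all 36 arrays of a tissue, or all 72 for root minus leaf, with at least 2 values per group and Benjamini-Hochberg adjustment over all spots tested. The code was tested on simulated data. Members, gene lists and tests were chosen with earlier results of these data known. Contrasts that chose the members were not tested. Spots were named by the largest differences in each comparison, pairs by their lower row. The duplicate layout was inferred from the rows, and the annotation gives the same sequence tag to both spots of 905 of 905 annotated pairs. Replicate numbers pair the arrays, since the labels make a number an independent experiment, and deviations of same-numbered arrays correlated from -0.04 to 0.50. Alternatives were quantile scaling, centring, a replicate block, the compared groups alone, complete values, averaged duplicates and leave-outs. Where nothing but the labels separates experiments, p-values measure the spread between these arrays.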

Additional observations from a re-analysis of the deposited data

Results flagged for a closer look

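The cold difference at 9 h differed between root and leaf in 18 of the 76 members by the test of the difference itself, lower in root in 17 and higher in root in 1. Of all spots, 4.09% were called lower in root and 4.95% higher. On leaving out any 1 array the count was 14 to 18, without all arrays of 1 experiment it was 5 to 13, and after quantile scaling it was 1. The leaf cold difference differed between 27 h and 3 h in 6 members, higher at 27 h in all 6 on the deposited values. Of all spots, 0.699% were called higher at 27 h and 0.814% lower. Without all arrays of any 1 experiment the count was 0. The direction was not stable, with 3 lower and 2 higher at 27 h when the compared groups were fitted alone or without replicate 3 of leaf cold 27 h, and 0 called after quantile scaling.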

How the results depend on the processing

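Quantile scaling moved most counts of called members: root cold 9 h to 10, leaf cold 9 h to 9, leaf cold 27 h to 7, leaf cold 27 h minus 3 h to 0, root heat 9 h to 28, root salt 9 h to 10, leaf salt 9 h to 1, leaf salt 27 h to 4, cold 9 h root minus leaf to 1, and root 9 h cold minus salt to 18. Counts over all spots also fell at this scaling in root cold 9 h, leaf cold 9 h and leaf cold 27 h minus 3 h. For the other comparisons the counts over all spots at this scaling are not given here. The member counts alone therefore do not show a change particular to the members. The cause was not tested. Quantile scaling kept leaf cold 3 h, leaf heat, leaf salt 3 h and root 9 h cold minus heat within 1.5 times. A replicate block, in which same-numbered arrays are paired, gave 37 calls in root cold 9 h and 45 in leaf cold 9 h, and moved no total by over 1.5 times, nor did centring, fitting the compared groups alone, complete values or averaged duplicates. Directions moved more with the groups alone. Leaf cold 27 h minus 3 h gave 3 negative and 2 positive, and leaf cold 3 h 5 and 7. Root heat 9 h gave 4 and 2. Complete values gave 5 negative calls in root cold 9 h, but that setting drops every spot with a missing value. Of the 127 called values of named spots, 104 stayed called there and 0 lost their call. The rest were not tested there. Leaving out all arrays of 1 experiment, or 1 array, gave 20 to 37 calls in root cold 9 h, 6 to 17 in leaf cold 3 h, 25 to 43 in leaf cold 9 h, 2 to 23 in leaf cold 27 h, 0 to 6 in leaf cold 27 h minus 3 h, 2 to 8 in root heat 9 h, 8 to 26 in leaf heat, 1 to 4 in root salt 9 h, 0 to 3 in leaf salt 3 h, 1 to 9 in leaf salt 9 h, 3 to 18 in leaf salt 27 h, 5 to 18 in root minus leaf, 33 to 44 in cold minus heat and 23 to 35 in cold minus salt.

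The rule itself was sensitive to the arrays. Without replicate 1, 2 or 3 it chose 70, 51 or 37 spots, of which 39, 40 and 32 were among the 76. With limits of -0.8 and -1.2 in root cold 3 h it chose 128 and 45, with 3 values in all groups 48, after quantile scaling 83 (42 shared) and after centring 77 (74 shared). Of the 127 called values of named spots, 65 stayed called after quantile scaling and 53 to 85 without 1 experiment, with 0 reversed.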
